A study of Mus musculus with 8 samples.

Results

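Sperm small RNA was compared between an shRNA against Hsp90aa1 and a negative-control shRNA, in 4 of the 8 libraries of the series. All mice were Balb/c at postnatal month 8, and each group held 2 libraries lettered A and B. The labels give the shRNA as the only difference between the groups; how it was delivered, which cells took it up and its target site are not stated. Nothing in the labels ties the A and B libraries to different animals, and every p below therefore reflects spread that may be technical. The authors listed 29960 loci under 17375 piRNA names for this comparison, and each name was used once. Values are RPM, reads per 1000000 of the library total, and, within the list, parts per 1000000 (ppm) or percent of the sum of all listed names.

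Hsp90aa1 encodes the cytosolic chaperone HSP90 alpha, which holds client proteins in a state ready to bind their partners. In animal germ cells, HSP90 and its co-chaperones take part in loading small RNA onto PIWI proteins, and the piRNAs held by these proteins silence transposable elements. Primary piRNAs usually begin with U, read as T in the DNA sequences here, and piRNAs made by the ping-pong cycle often carry A at the tenth base. Mature sperm carries few long RNAs and many fragments of ribosomal RNA, transfer RNA and small nucleolar RNA (snoRNA), as well as microRNAs.

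The sequences that carry the differences are shown first. They were read from GENCODE M21 transcripts on GRCm38, and those of microRNAs from RefSeq (GRCm38.p6). A sequence was found for 10154 names, or 58.4%. Of the names that fell within the list, the following 5 lie on ribosomal RNA or on snoRNAs of the box C/D family, which guide 2′-O-methylation of ribosomal RNA; capitals mark TGATGA, the C box near the 5′ end of such a snoRNA. The 18-base ribosomal name has no such box and is printed wholly in lower case.
piR-mmu-49083875 (18S ribosomal RNA, chr16:18533313-18533330, minus strand): tacctggttgatcctgcc
piR-mmu-49237870 (Snord66, chr16:20684239-20684258, plus strand): ttccgcTGATGActtctgtc
piR-mmu-15709216 (Snord60, chr17:24528476-24528500, plus strand): agcccgTGATGAattaatttctgac
piR-mmu-49635616 (Snord14c, chr9:40803583-40803602, plus strand): tcgctgTGATGAtggattcc
piR-mmu-50853875 (Snord14d, chr9:40803994-40804014, plus strand): ctcgctgTGATGAtggattcc

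Of the names that rose, these 4 lie on long noncoding exons, and the capital marks the first base.
piR-mmu-40529 (Gm21269, chr7:73817222-73817248, plus strand): Tggagattgaatttttgaaaaagcctt
piR-mmu-1043221 (Gm21269, chr7:73817220-73817248, plus strand): Tttggagattgaatttttgaaaaagcctt
piR-mmu-51220004 (Gm21221, chr5:149803556-149803583, minus strand): Tgctagatctactgagaaaaaccttttt
piR-mmu-2624779 (1700001L05Rik, chr15:83355555-83355584, minus strand): Taatgcaatcttctctgcttgtctgccttg

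Among the most abundant names were mature microRNAs; capitals mark the seed, bases 2 to 8, by which a microRNA pairs with its targets. The pair of let-7 microRNAs share a seed, as do the pair of the miR-200 family.
miR-148a-3p (piR-mmu-48707800): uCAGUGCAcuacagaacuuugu
let-7f-5p (piR-mmu-10842452): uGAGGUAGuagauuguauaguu
let-7c-5p (piR-mmu-10879204): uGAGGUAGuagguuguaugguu
miR-20a-5p (piR-mmu-10835453): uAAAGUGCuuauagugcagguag
miR-200b-3p (piR-mmu-48716468): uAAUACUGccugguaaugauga
miR-200c-3p (piR-mmu-10875038): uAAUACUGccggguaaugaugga

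Of all reads in a library, the listed names held 27.8% (negative control A), 32.5% (negative control B), 4.98% (Hsp90aa1 shRNA A) and 3.18% (Hsp90aa1 shRNA B). The totals were 9710383, 13380630, 13360928 and 10832261 reads in the same order, so the shallower listed counts of the Hsp90aa1 shRNA libraries (median 10 and 5 reads per name, against 46 and 58) did not come with smaller libraries. In bulk RNA, fewer cells of a type and less RNA per cell cannot be told apart. Of 17375 names, 17338 had a lower mean RPM with the Hsp90aa1 shRNA and 37 a higher one. Every listed name had reads in all 4 libraries, and the smallest difference of any name was 0.95 on the log2 scale of the group means. How the names were selected is not stated, so calls per library total are given as a description of the list.

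Per library total, 16773 of 16859 tested names were lower (99.5% of names tested) and 37 higher (0.219%), by limma on log2(RPM + 1) at an adjusted p under 0.05. The median difference on that scale was -1.66, and the median log2 ratio of the group means in RPM, over all listed names, was -2.86. On the reads recovered from RPM, edgeR called 16700 lower and 37 higher. No value of Hsp90aa1 RNA itself can be given, since 0 listed names lie on Hsp90aa1, Hsp90ab1, Hsp90b1 or Trap1, and the target therefore does not check the labels. Likewise 0 names lie on the 16 genes of the piRNA pathway that were looked up, such as Piwil1, Mael and Ddx4.

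At 21 to 23 nt and at 29 to 35 nt the libraries of a group stood further apart than the group means did. Names of 29 to 35 nt, the usual length of piRNAs bound by MIWI and also that of long tRNA fragments, took 31.9% and 17.4% of the listed total with the negative control (A, then B), and 22.5% and 46.3% with the Hsp90aa1 shRNA. Names of 21 to 23 nt, the length of microRNAs, took 26.2%, 34.5%, 37.7% and 18.1% in that order. In both ranges the groups overlap: negative control A and Hsp90aa1 shRNA B were rich in long names, and the other two in short ones. Names of 24 to 28 nt took 33.8%, 29.2%, 32.6% and 32.9%, which also overlap. The mean length was 25.9, 23.98, 24.9 and 27.3 nt.

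Names of 17 to 20 nt were the only one of the 4 ranges without overlap, with 8.10% and 18.9% in the negative-control libraries against 7.16% and 2.65% with the Hsp90aa1 shRNA. At 18 nt the shares were 3.37%, 9.40%, 1.56% and 0.647%. Both shares include the 18-nt 18S name piR-mmu-49083875, with 20835 and 58578 ppm of the listed total against 1074 and 397. In negative-control A that name alone exceeds the gap to Hsp90aa1 shRNA A in both shares, so the separation depends on it. With 2 libraries against 2, an exact permutation test cannot go below a two-sided p of 0.33, so no test of a share is given. The median within-list difference of tested names went from -0.86 (log2) at 18 nt through -0.28 at 22 nt to 0.34 at 30 nt.

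**Figure D1:**
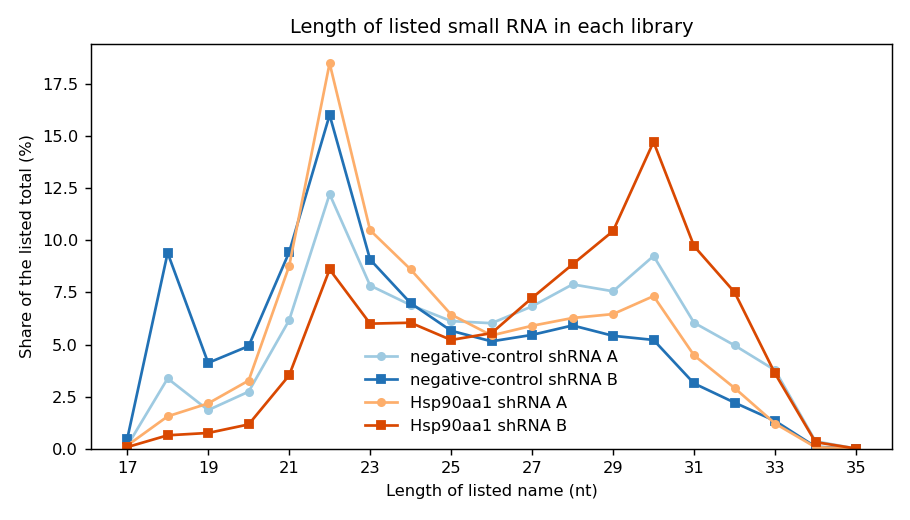
Share of the listed total (%, vertical axis) at each length from 17 to 35 nt (horizontal axis), 1 line per library. Negative-control B and Hsp90aa1 shRNA A peak at 22 nt with 16.01% and 18.5%, while Hsp90aa1 shRNA B peaks at 30 nt with 14.7%.

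By annotation, ribosomal RNA, snoRNA and protein-coding exons held a smaller part of the list with the Hsp90aa1 shRNA. Ribosomal RNA names took 23.8% and 25.5% in the negative-control libraries and 17.9% and 19.3% with the Hsp90aa1 shRNA, a difference of -6.03 percentage points. The 18-nt 18S name piR-mmu-49083875 is part of it, with 20835 and 58578 ppm of the listed total against 1074 and 397. SnoRNA names took 11.7% and 9.05% against 5.91% and 8.36%. Protein-coding exons took 3.29% and 2.98% against 1.76% and 2.205%. In these 3 classes the groups did not overlap. Over names with 1 locus the difference was -2.02 percentage points for ribosomal RNA and 0.0137 for protein-coding exons, against -1.15 over all names, so the direction of the latter turned. The median within-list difference of protein-coding exon names was 0.04 (log2). The 2 most abundant names of this class, both labelled Lars2, have 5 and 4 listed loci. Their label therefore does not settle the gene they came from.

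The share of names inside a gene, and in none of the other classes, was larger with the Hsp90aa1 shRNA, at 16.2% and 18.7% against 13.4% and 11.8%. Other small structural RNA, such as Y RNA and the RNase MRP RNA Rmrp, took 0.818% and 1.498% against 0.630% and 0.435%. Transfer RNA took 4.94% and 4.004% in the negative-control libraries and 4.89% and 8.69% with the Hsp90aa1 shRNA, and microRNA genes 21.6%, 28.9%, 34.95% and 18.3%; in both of these the groups overlap. The microRNA shares order the libraries as the 21 to 23 nt range does, with Hsp90aa1 shRNA A highest and B lowest.

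**Figure D2:**
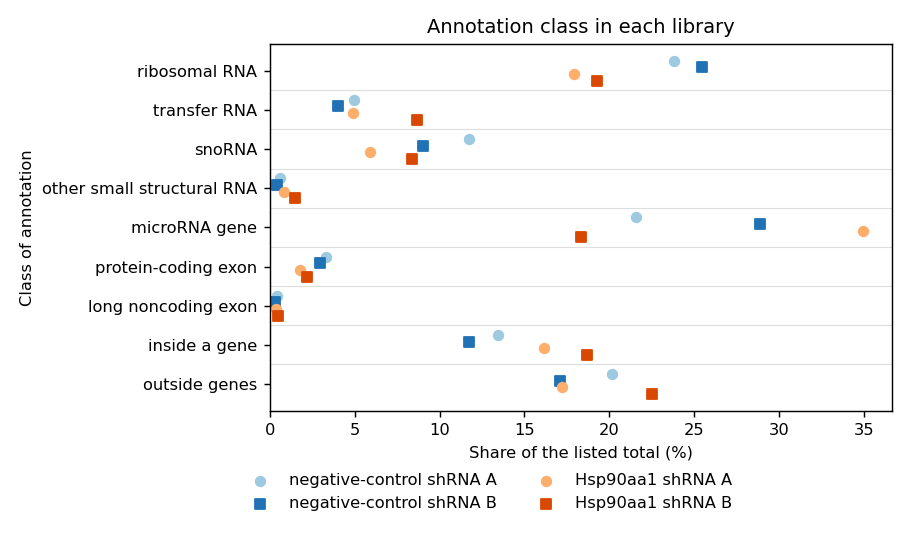
Share of the listed total (%, horizontal axis) of each annotation class (vertical axis), 1 point per library. For ribosomal RNA, snoRNA and protein-coding exons both Hsp90aa1 shRNA points lie below both negative-control points, and for names inside a gene both lie above.

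The snoRNA share separated the groups at each length range up to 28 nt. At 24 to 28 nt, snoRNA names took 6.64% and 5.45% in the negative-control libraries against 3.35% and 4.01%, with no overlap. At 29 to 35 nt they took 4.13% and 2.07% against 1.86% and 4.03%, and the groups overlap. For ribosomal RNA, the range of 17 to 20 nt went from 3.81% and 9.57% to 1.75% and 0.664%, while at 24 to 28 nt it was 9.83% and 8.19% against 9.10% and 9.07%.

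Within the list, 32 of 16859 tested names were lower (0.19%) and 37 higher (0.219%) by limma on log2(ppm of the listed total + 1). An unadjusted p under 0.05 was met by 1782 names, and edgeR on the recovered reads called 30 lower and 37 higher. The 37 are the same names that were higher per library total. Since 17338 of the 17375 listed names are lower per library total and each differs by at least 0.95 (log2) there, a name higher per library total has to stand far above the rest of the list, so the 37 are described and their calls within the list are no separate test. The number of lower names moved with single libraries: it was 1062 without Hsp90aa1 shRNA A, 258 without Hsp90aa1 shRNA B, and 16 without negative-control B. It was also 14 with edgeR and TMM factors and 122 with DESeq2 size factors. The number of higher names was 171 without Hsp90aa1 shRNA A. The 32 named here had a difference below 0 without any one library, and 15 to 32 of them passed.

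The largest fall was at the 5′ end of 18S ribosomal RNA, the RNA of the small ribosomal subunit. The 18-nt name piR-mmu-49083875, shown above, had 5798 and 19044 RPM in the negative-control libraries and 53.5 and 12.6 with the Hsp90aa1 shRNA. It was the most abundant listed name in both negative-control libraries, and its mean was 375-fold lower with the Hsp90aa1 shRNA. Within the list its log2 difference was -5.74 (SE 0.68, limma adjusted p 0.00332).

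The listed names that share its first 17 bases differed by length. At 17 nt, piR-mmu-8176039 had 39.4 and 144 RPM against 2.40 and 0.554, a log2 difference within the list of -3.07 (limma adjusted p 0.173). At 19 nt, piR-mmu-50949321 had 11.3 and 28.7 RPM against 0.973 and 0.0923, with a difference of -2.77 (adjusted p 0.302). At 29 nt, piR-mmu-24893113 had 3.40 and 2.84 RPM against 0.748 and 0.462, and its difference was 0.47 (adjusted p 0.79). Of the 6 that share this start, the 18-nt name passed. Set against the median of names of their own length, a scaling described further on, the 17-nt name (-2.47, adjusted p 0.000916) and the 19-nt name (-2.02, adjusted p 0.0115) passed too. They were looked up after the values of the 18-nt name were seen.

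Of the other 6 ribosomal names that fell, 4 lie on the minus strand at chr1:56782087-56782385, and 3 of these end at the same base. The highest of them, piR-mmu-57637038 (24 nt), had 217 and 304 RPM against 1.87 and 1.02, a difference of -4.58 (SE 0.51, limma adjusted p 0.00332). Names that overlap in this way share bases and are not independent measurements.

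Of the 32 names, 17 lie on snoRNA genes, where 1751 names were tested. On Snord66, a box C/D snoRNA in an intron of the translation factor gene Eif4g1, the 20-nt name piR-mmu-49237870 had 85.2 and 187 RPM against 0.898 and 0.0923, which is 12 and 1 reads; its difference was -5.61 (SE 0.76, adjusted p 0.00745). On Snord104, the 27-nt name piR-mmu-29449009 had 121 and 141 RPM against 0.599 and 0.277, a difference of -5.28 (SE 0.53, adjusted p 0.00332). On Snord60, piR-mmu-15709216 had 199 and 236 RPM against 1.42 and 0.831, a difference of -4.67 (SE 0.51, adjusted p 0.00332). The last of these, with 19 and 9 reads left, was 193-fold lower per library total. In all 3 the groups did not overlap in RPM, as in 17337 of the 17338 names with a lower mean.

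On Snord14c and Snord14d, copies of U14 in introns of the heat-shock cognate gene Hspa8, the names of 20 and 21 nt printed above had differences of -3.56 and -4.06 (adjusted p 0.022 and 0.014). Snord34, of the ribosomal protein gene Rpl13a, had 96.5 and 108 RPM against 0.225 and 0.831 in piR-mmu-51783475, a difference of -4.80 (SE 0.73, adjusted p 0.0171).

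All 17 begin within 5 nt of the annotated 5′ end of the snoRNA gene. In all, 532 tested names begin there, with a median within-list difference of -0.22. The 1113 that begin further inside had a median of -0.42 and 0 lower calls, where 0.19% of all tested names were lower. The names that begin at the 5′ end took 4.39% and 4.10% of the listed total in the negative-control libraries and 2.05% and 2.65% with the Hsp90aa1 shRNA, and the groups do not overlap. Those further inside took 6.30% and 4.13% against 3.26% and 4.99%, and the groups overlap. The restriction to the 5′ end did not hold when each name was set against the median of its own length. Then 97 of the 532 were lower and 21 higher, and of the 1113 further inside 132 were lower and 12 higher. On that scale 6.55% of all tested names were lower and 4.85% higher. The grouping by start position was chosen after the values were seen.

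TGATGA within the first 14 bases of the name was found in 12 of the 24 lower names with a sequence, against 4.80% of all names with a sequence. Of snoRNA names with the motif 12 of 436 tested were lower, and they took 4.41% and 3.92% of the listed total against 2.35% and 3.09%, without overlap. Of those with a sequence but no such motif 3 of 1229 were lower, and they took 6.86% and 4.55% against 3.34% and 5.09%, with overlap. The medians were -0.13 with the motif and -0.42 without it. Scaled within each length, 70 names with the motif were lower and 20 higher, and without it 160 were lower and 12 higher. Of all tested names 6.55% were lower and 4.85% higher on that scale. A match is to the letters TGATGA only, on the strand of the name.

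**Figure D3:**
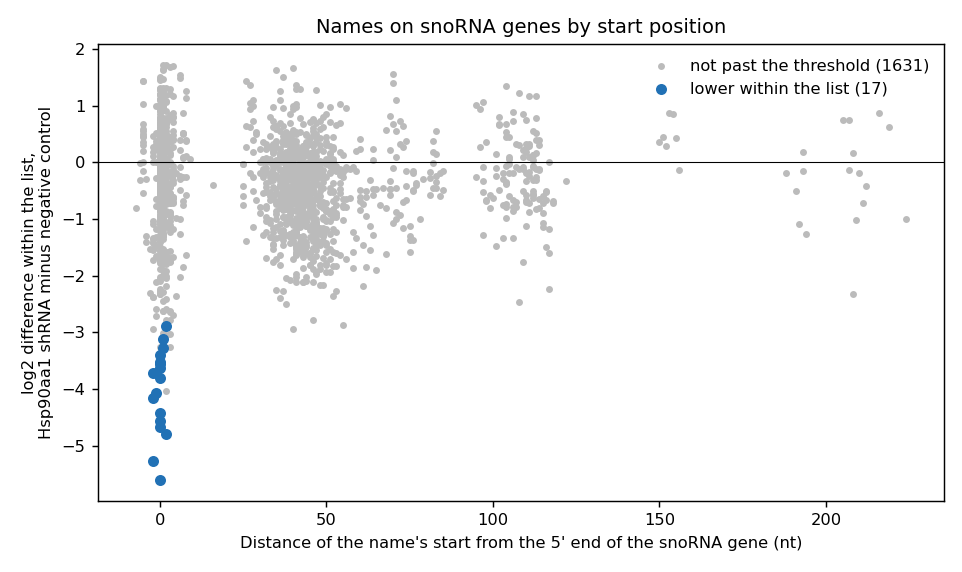
Within-list log2 difference (vertical axis, Hsp90aa1 shRNA minus negative control) of each tested name on a snoRNA gene against the distance of its start from the gene's 5′ end (nt, horizontal axis). The 17 names that passed the test as lower all start within 5 nt of the 5′ end, on the scale plotted here. Scaled within each length, 132 of 1113 tested names that start further inside were lower as well, where 6.55% of all tested names were.

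The rest of the 32 carry other labels. The 30-nt name piR-mmu-55533771 in 5430416N02Rik had 247 and 197 RPM against 0.748 and 0.831, a difference of -5.14 (SE 0.55, adjusted p 0.00332). At Gphn, piR-mmu-4880618 (26 nt) had 366 and 476 RPM against 2.54 and 1.48. At Lars2, piR-mmu-3728764, of the same length, had nearly the same values, 369 and 478 against 2.54 and 1.57. Whether both names count the same reads was not tested. The Lars2 name has 4 listed loci, so its label does not settle the gene it came from. The only transfer RNA name, piR-mmu-49417868 on a tryptophan tRNA gene, had 20.3 and 51.8 RPM against 0.524 and 0.0923, a difference of -4.02 (SE 0.70, adjusted p 0.045).

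The 37 names that rose were long and mostly outside structural RNA. Their median length was 30 nt, against 26 nt for all listed names, and 32 of 37 were of 29 to 35 nt, where 4878 of 17375 listed names are. Of the 37, 16 lie inside genes, 14 outside genes, 5 on long noncoding exons, 1 on other small structural RNA and 1 on a protein-coding exon, and 31 have a single locus. None lies on ribosomal RNA, transfer RNA, snoRNA or a microRNA gene. All 7 with a sequence begin with T, against 28.3% of all names with a sequence.

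Summed, the 37 had 35.01 and 28.1 RPM in the negative-control libraries and 195 and 229 RPM with the Hsp90aa1 shRNA. They remain a small part of the list, with 126 and 86.4 ppm of the listed total against 3914 and 7201. The counts behind single names are low: 1 to 50 reads in negative-control A and 1 to 62 in B. Most of the 37 had a negative-control mean under 1 RPM, the level needed for testing. Those names entered the tests through the Hsp90aa1 shRNA group alone, where they are high.

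The most abundant was the 27-nt name piR-mmu-40529 on the noncoding gene Gm21269, with 5.15 and 4.63 RPM against 22.9 and 23.4, which is 4.73-fold higher; within the list the difference was 5.08 (SE 0.54). The next, piR-mmu-424500 of 31 nt, lies on the minus strand inside Cyp19a1, the gene of the oestrogen-making enzyme aromatase, and had 4.22 and 3.36 RPM against 18.3 and 22.2. Outside genes, piR-mmu-26003 had 2.68 and 2.02 RPM against 12.4 and 12.6, and piR-mmu-192405 had 2.27 and 1.49 against 9.36 and 12.0. These 4 names stood between 4.73-fold and 5.68-fold higher per library total. In each, both Hsp90aa1 shRNA libraries lay above both negative-control libraries, as in all 37 higher names. The list as a whole has this trait, since 17337 of its 17338 lower names do not overlap between the groups either.

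The largest difference was that of piR-mmu-51777728 (30 nt, Gm36617), with 0.206 and 0.299 RPM, or 2 and 4 reads, against 5.39 and 6.46 RPM, or 72 and 70 reads. Its within-list difference was 6.35 (SE 0.61), and it was tested only because of its Hsp90aa1 shRNA values. In Deptor, which encodes an inhibitor of mTOR, piR-mmu-61380110 had 0.412 and 0.299 RPM against 3.44 and 8.31. Several of the 37 are neighbours: 4 lie in a single cluster outside genes on chromosome 18, 3 inside C2cd4b on chromosome 9, and 3 lie between 73811541 and 73817248 on chromosome 7.

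**Figure D4:**
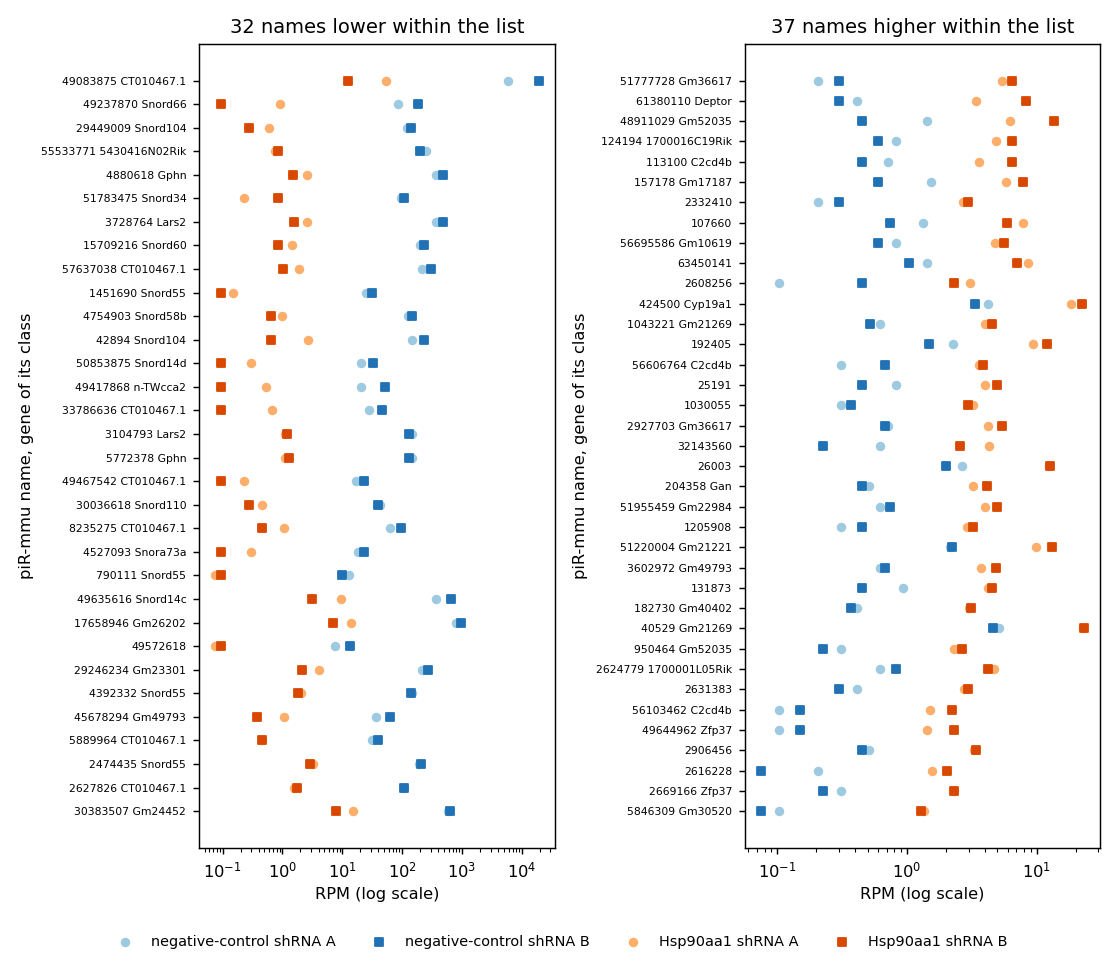
RPM (log scale) in each library of the 32 names lower (left) and the 37 higher (right) within the list, sorted by their difference, 1 row per name with the gene that gave its class. Lower names fall from as much as 19044 RPM, and higher names stay at or below 23.4 RPM in all libraries.

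The first base separated the groups at 17 to 20 nt and, by less and in the other direction, at 24 to 28 nt. Among names of 17 to 20 nt with a sequence, T-first names took 65.6% and 68.4% of the reads in the negative-control libraries and 48.8% and 47.1% with the Hsp90aa1 shRNA. This range holds the 18S name above, which begins with T, and the shares without it were not computed. At 21 to 23 nt the shares were 64.4%, 64.5%, 63.6% and 64.9%, and at 29 to 35 nt 25.9%, 23.6%, 21.9% and 23.9%, and in both the groups overlap. At 24 to 28 nt they were 35.7%, 35.9%, 37.2% and 36.3%, higher with the Hsp90aa1 shRNA and without overlap.

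By class, the T-first share was lower without overlap in ribosomal RNA (29.6% and 39.8% against 21.7% and 23.1%), snoRNA (38.6% and 39.7% against 34.6% and 34.1%), microRNA genes (72.8% and 72.9% against 69.5% and 69.8%) and protein-coding exons (39.7% and 39.8% against 34.3% and 32.2%). Transfer RNA, with 16 T-first names, went the same way, from 28.5% and 41.2% to 25.9% and 11.4%. Long noncoding exons went the other way, from 15.4% and 12.4% to 34.1% and 47.7%. That class holds 5 of the 37 higher names, so these shares rest partly on them. The ribosomal RNA shares include the T-first 18S name, with 20835 and 58578 ppm of the listed total against 1074 and 397. Ribosomal shares without that name were not computed. The median within-list difference was -0.16 for T-first ribosomal names and -0.21 for all ribosomal names tested. A at the tenth base, in all names with a sequence, took 20.8% and 20.4% against 25.2% and 23.9%. Without the 20 most abundant names this difference was 1.45 percentage points in place of 3.93.

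By strand, the groups separated among names with 1 locus and not over all names, of which 4407 are listed on both strands. The plus strand held 58.7% and 54.5% of the listed total in the negative-control libraries and 53.8% and 55.6% with the Hsp90aa1 shRNA, which overlap. Over names with 1 locus it held 62.3% and 59.5% against 52.1% and 57.0%, which do not overlap. Names on snoRNA genes were all in the sense direction, 1572 of 1572, and on microRNA genes 878 of 880 were. On protein-coding genes, counting introns, 2316 of 2662 names were sense, and these took 82.7% and 83.6% of the reads against 80.3% and 74.2%, again without overlap.

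Grouping loci no more than 10 kb apart, and keeping groups of 10 names or more, gave 198 clusters. They held 15954 of the names and from 87.8% to 89.8% of the listed total. Of these, 180 lie on 1 strand only. Within the list, 18 clusters were lower (9.09%) and 6 higher (3.03%) by limma on summed ppm. An unadjusted p under 0.05 was met by 48 clusters. SnoRNA was the most frequent class in 9 of the 18 lower clusters, and in 53 of all 198.

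The lower clusters follow the names above. The cluster at chr16:18533190-18533330, with the 18S name, went from 3.27% and 7.08% of the listed total to 0.815% and 0.770% (log2 difference -2.60, SE 0.51, adjusted p 2.31e-05). That name alone was 63.8% of the cluster in negative-control A, and without it the difference was -0.74 (adjusted p 0.203). The Snord14 cluster on chromosome 9 went from 3148 and 4150 ppm to 921 and 632 (-2.24, SE 0.42, adjusted p 1.9e-05). Without its most abundant name it still passed (-1.65, adjusted p 0.0109).

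The Snord104 cluster went from 4310 and 5443 ppm to 1419 and 1177 (-1.90, SE 0.37, adjusted p 2.31e-05), and the 3 snoRNAs around Snord58b on chromosome 18 from 6427 and 5878 ppm to 1478 and 1810 (-1.91, SE 0.39, adjusted p 4.47e-05). Snord32a, Snord33 and Snord34 together went from 894 and 1053 ppm to 186 and 313 (-2.002, SE 0.48, adjusted p 0.000887). A microRNA cluster on chromosome 17 with Mir99b, Mirlet7e and Mir125a was also lower, from 1197 and 1626 ppm to 679 and 418 (-1.39, SE 0.47, adjusted p 0.0361).

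Among the 6 clusters higher within the list, the largest difference was at Cyp19a1 (chr9:54214934-54233998, 15 names), from 118 and 127 ppm to 535 and 902 (2.50, SE 0.47, limma adjusted p 1.9e-05). The name piR-mmu-424500 was 12.9% of it in negative-control A and 68.8% in Hsp90aa1 shRNA A, and without that name the difference was 0.74 (adjusted p 0.217). The cluster of the Y RNA genes Rny1 and Rny3, whose RNAs bind the Ro60 protein, went from 1599 and 1308 ppm to 2547 and 4426 (1.21, SE 0.38, adjusted p 0.0204). The 7 listed Y RNA names on Rny3 did not share this direction and took 64.0 and 94.9 ppm against 60.1 and 37.7. Per library total the cluster was lower, with 445 and 425 RPM against 127 and 141. A cluster at chr6:127797851-127810214 was higher within the list, from 165 and 151 ppm to 401 and 589 (1.62, SE 0.46, limma adjusted p 0.00903). The list held 27.8% and 32.5% of all reads against 4.98% and 3.18%. Per library total the Cyp19a1 and chromosome 6 clusters were therefore lower too.

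The 2 largest clusters did not pass. The copy of the 45S ribosomal repeat at chr17:39842998-39848228, with 4879 names, held 18.1% and 16.1% of the listed total against 15.4% and 16.5% (-0.10, SE 0.26, adjusted p 0.874). The locus at chr6:3200964-3201671 held 9.42% and 7.23% against 5.84% and 8.03% (-0.27, SE 0.33, adjusted p 0.67). A p that misses the threshold does not show that the shares are equal.

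Without their most abundant name all 18 lower clusters stayed below 0 and 9 passed, and all 6 higher ones stayed above 0 and 2 passed. The cluster calls rest on few libraries: leaving out 1 library gave 4 lower and 3 higher without Hsp90aa1 shRNA A, 8 and 1 without Hsp90aa1 shRNA B, 1 and 0 without negative-control A, and 0 and 0 without negative-control B. With median scaling over clusters in place of the listed total, 0 were lower and 0 higher, and with the replicate letter as a block likewise 0 and 0.

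**Figure D5:**
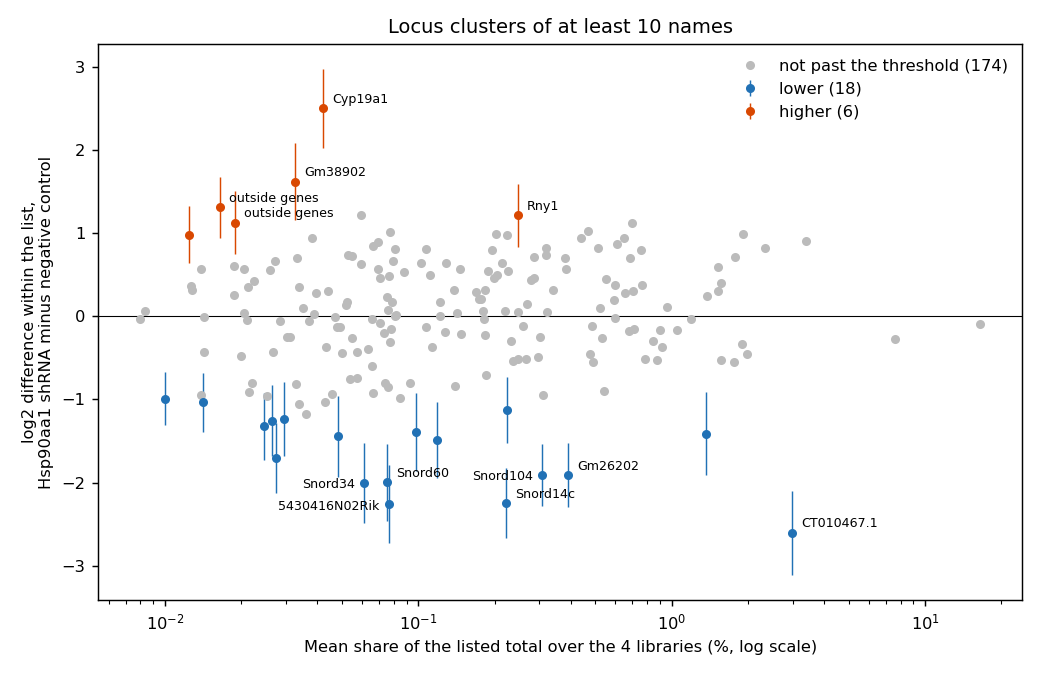
Within-list log2 difference (vertical axis, Hsp90aa1 shRNA minus negative control) of 198 locus clusters against their mean share of the listed total (%, log scale). Coloured points passed the test, with bars of 1 SE, and carry the name of their main gene where the difference is largest; the 2 largest clusters lie near 0.

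The most abundant names of the other classes did not pass within the list. On a glycine tRNA gene, piR-mmu-10849969 (30 nt) had 3037 and 1763 RPM against 433 and 639, a within-list difference of 0.78 (SE 0.61, limma adjusted p 0.661). On a glutamate tRNA gene, piR-mmu-3770383 (31 nt) had 1598 and 1044 RPM against 377 and 472, a difference of 1.30 (SE 0.57, adjusted p 0.47). Both were lower per library total, 4.48-fold and 3.11-fold, which is less than the median listed name. The most abundant snoRNA name, piR-mmu-2047156 (28 nt, Gm24452), had 1512 and 1170 RPM against 106 and 105, a difference of -0.74 (SE 0.53, adjusted p 0.633). On Rmrp, the RNA of RNase MRP, piR-mmu-18089112 had 626 and 405 RPM against 131 and 187, a difference of 1.23 (SE 0.59, adjusted p 0.491). On Rny1, piR-mmu-49913002 had 137 and 106 RPM against 50.97 and 66.1, a difference of 1.86 (SE 0.56, adjusted p 0.327).

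MicroRNAs had 138 listed names equal to a mature sequence. Within the list 0 of the 136 tested were called in either direction, where 0.19% of all tested names were lower and 0.219% higher. At such shares 0 calls among 136 names do not show that they were unchanged. Their median difference was 0.04, against -0.04 for all tested names. Together they took 8.28%, 10.7%, 14.4% and 7.05% of the listed total, so the groups overlap. Of the 138, 120 had a higher ppm in Hsp90aa1 shRNA A than in B, and 126 a higher ppm in negative-control B than in A, as the lengths of these libraries differ in the same order.

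The most abundant, miR-148a-3p, had 5054 and 7411 RPM against 972 and 242, a within-list difference of -0.74 (SE 0.59, adjusted p 0.667). For let-7f-5p the values were 2125 and 3430 RPM against 1143 and 362, a difference of 0.85 (SE 0.56, adjusted p 0.593). The seed of let-7, shared by 6 mature names, summed to 17438 and 24126 ppm against 39002 and 19898, and the groups overlap. The AAUACUG seed of the miR-200 family summed to 3732 and 4539 ppm against 2844 and 1247, without overlap; its members miR-200b, miR-200c and miR-429 are also among the epithelial markers given further on. The AAAGUGC seed of miR-17, miR-20a, miR-93 and miR-106b summed to 2777 and 3114 ppm against 5602 and 3727, again without overlap.

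Since length separated the libraries across the groups, each name was also set against the median of tested names of its own length. This scaling was added after the data were seen. It called 1105 names lower (6.55%) and 817 higher (4.85%), among them all 32 and all 37. SnoRNA names had 246 lower and 34 higher of 1751, and ribosomal RNA 391 lower and 107 higher of 6054. MicroRNA genes had 26 lower and 127 higher of 1126, and names inside a gene 109 lower and 287 higher of 3878.

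On that scale 26 of the 136 mature microRNAs were higher and 6 lower. The higher ones included let-7f-5p (1.25, limma adjusted p 0.00179), miR-19b-3p (1.76) and miR-20a-5p (1.05), of which the last 2 come from the Mir17-92 cluster that acts in cell proliferation. The lower ones included miR-200c-3p (-0.92, adjusted p 0.018), miR-125b-5p (-0.88) and miR-99b-5p (-0.96). In RPM each of these was lower in both Hsp90aa1 shRNA libraries, as with miR-19b-3p at 124 and 134 RPM against 59.1 and 34.8.

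The let-7 list had 0 calls of 62 tested names, with a median of -0.26. Of names on Snord genes 13 of 913 tested were lower within the list and 0 higher, where 0.19% and 0.219% of all tested names were, with a median of -0.39 against -0.04 for all tested names, and on Snora genes, of the H/ACA family that guides pseudouridylation, 1 of 84 was lower, with a median of -0.32. The 27 tested Y RNA names had 0 calls and a median of 0.81; 21 of the listed ones lie on Rny1, which took 1541 and 1220 ppm against 2491 and 4394, with a median of 1.04, and the other 7 on Rny3, with a median of -0.81. Names on Rnu genes, mostly of spliceosomal and U3 RNA, had 0 calls of 45 and a median of 0.14. They took 0.0644% and 0.0557% of the listed total against 0.0889% and 0.102%. This list includes Rnu73b, whose 4 names have the same summed RPM as the 4 on Snord73b in the Snord list. Of the Gly, Glu, Val, His and Lys tRNA genes, whose 5′ fragments abound in sperm, those of His had no listed name. Names on the others had 0 calls of 202 tested and a median of -0.19. They took 4.03% and 2.82% against 4.11% and 7.94%, which do not overlap, though negative-control A and Hsp90aa1 shRNA A nearly meet. Scaled within each length, 30 were lower and 16 higher, where 6.55% and 4.85% of all tested names were.

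The cell markers were microRNA genes. Mir34b, Mir34c and Mir449a, which are high in germ cells, were listed, with 0.477% and 0.812% of the listed total in the negative-control libraries and 1.27% and 0.511% with the Hsp90aa1 shRNA. Epithelial markers (Mir200a, Mir200b, Mir200c, Mir141 and Mir429, 5 of 5 listed) took 0.931% and 1.17% against 0.801% and 0.346%, and the smooth muscle markers Mir143 and Mir145a 1.32% and 2.21% against 2.05% and 0.689%. Blood markers (Mir451a, Mir144 and Mir142 listed) took 0.135% and 0.187% against 0.154% and 0.218%. Only the epithelial share did not overlap between the groups, and its part in the results was not tested. Skeletal muscle markers (5 names on Mir1a and Mir133a) took 0.0531% and 0.0770% against 0.0601% and 0.0342%. The liver marker Mir122 has no listed name, which does not show that it is at 0.

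The other table of the series, MC-LR (the toxin microcystin-LR) against control, shares no library with this one and was scaled apart, so its values are set beside these without a test. Of the 32 lower names, 29 are listed there and 0 were called within that list, where 3.63% of names were lower. Of the 18 lower clusters, 15 have a counterpart there, all 15 below 0, and 10 passed, where 26.5% of clusters were lower. The difference of the Snord60 cluster was -1.60 there and -1.995 here, and that of the 18S cluster -0.14 there and -2.60 here. Of the 6 higher clusters, 4 have a counterpart there, 2 above 0, and 1 passed, where 5.56% were higher. Only 1 of the 37 higher names is listed in the MC-LR table, and it was higher there too, where 2.38% of names were.

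In 7 windows at least 0.5 of tested names were higher in the MC-LR table. In those windows 72 names are listed here, and of the 69 tested 12 were higher and 1 lower within the list. Of all tested names 0.219% and 0.19% were. The 12 are among the 37 higher names, whose calls within the list are no separate test. Most of the 37 were tested only through their Hsp90aa1 shRNA values. The 7 windows were chosen from the MC-LR table alone, and the other 25 of the 37 lie outside. The windows together took 1539 and 1996 ppm in the negative-control libraries and 2634 and 3048 ppm with the Hsp90aa1 shRNA. In 6 of the 7 the share was larger with the Hsp90aa1 shRNA, without overlap. The window with the most names, 29 of the 72, on chromosome 17, went the other way, from 920 and 1191 ppm to 784 and 470. Per library total the windows together were 4.72-fold lower, with 428 and 649 RPM against 131 and 97.0.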

How the data were processed

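Libraries were made from sperm RNA extracted with Trizol, per the labels' protocols, and Bowtie2 2.2.3, HISAT2 2.1.0 and HTSeq 0.6.0 with mm10 are named in the submitters' processing notes; which step each served, and how loci were chosen for the list, is not given in the sources used here. The authors deposited RPM values per locus. All values were whole multiples of that of 1 read (100% within 0.01), which gave back reads and totals. Of 7499 names at several loci, 7250 hold the same values at each, so only the locus of highest mean RPM was kept for a name. Starts, deposited from 0, are printed from 1; 73 of 92 let-7 loci then begin TGAGGTAG. Classes come from GENCODE M21 and RefSeq by an overlap of at least 0.5 of the locus; where loci of a name differ in class, structural RNA was taken before microRNA, exons before introns, and genes before the space between them.

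Tested were names that reached a group mean of 1 RPM, with limma 3.58.1 (trend, robust), on log2(RPM + 1) and on log2(ppm of the listed total + 1), and clusters on summed ppm, with Benjamini-Hochberg adjustment at 0.05. Fold changes on these scales understate changes of low values. Count tests on the recovered reads, with edgeR 4.0.16 and DESeq2 1.42.0, served as alternatives. The scripts were tested on simulated data. The rule for named names took the 10 largest rises and falls past the threshold with at least median abundance, the 10 most abundant of the rising names, the 8 most abundant names and the 2 most abundant of each class, and of clusters the 8 largest rises, falls and shares; not all are printed, and names printed beyond it were chosen after their values were seen. Members and lists were chosen with earlier results of these data known. Counts carry no molecular identifiers, so depth limits cover counting error only.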

Additional observations from a re-analysis of the deposited data

How the results depend on the processing

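The counts of names per library total kept within 1.5 times of the reported ones, except 9558 lower over names with 1 locus, where fewer names were tested; leaving out 1 library gave 14367 to 16293 lower and 36 to 37 higher. Within the list, lower names numbered 122 with DESeq2 size factors, 14 with TMM factors, 20 over names with 1 locus, 1105 scaled within each length and 1285 scaled to the total of each length (a first version of that scaling, in which 1 name dominates 18 nt); higher names numbered 817 and 1093 in the last 2. Leaving out 1 library gave 16 to 1062 lower and 37 to 171 higher. With the replicate block, 31 names were lower and 37 higher within the list, 16252 and 37 per library total, and 0 and 0 clusters. The letters pair nothing in the labels, and same-letter deviations correlated at -0.58; the crossed pairing, added after the data were seen, gave 1549 lower and 1167 higher names and 39 and 49 clusters. Clusters numbered 0 lower and 0 higher with median scaling, 7 lower over names with 1 locus, 9 and 2 without each cluster's most abundant name, and 0 to 8 lower and 0 to 3 higher without 1 library. The cause of these moves was not tested.

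Over names with 1 locus, the difference in percentage points was 0.0137 for protein-coding exons, which turned from -1.15, and -2.02 for ribosomal RNA, -6.34 for the plus strand, -0.19 for transfer RNA and 0.557 for A at the tenth base. Without the 20 most abundant names it was -3.40 for ribosomal RNA, -5.04 for the plus strand (strand shares, plus strand), -1.44 for protein-coding exons and 1.45 for A at the tenth base. Median listed depths of 5 and 10 reads per name in the Hsp90aa1 shRNA libraries limit what could be called within the list.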
